A study of Homo sapiens with 6 samples.

Results

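Genes of homologous recombination, the Fanconi pathway, mismatch repair and DNA damage signalling were examined in VCaP, a cell line from a human prostate cancer. The 41 genes were the rows of the deposited count table whose symbol is on a list of such genes, out of 58735 rows. That list was drawn up with earlier results of these data known. All 41 had enough reads to be tested, among 13958 tested genes. Stable VCaP cells carried a short hairpin RNA against NEDD9 (shNEDD9, 3 libraries) or a non-targeting hairpin (shNTC, 3 libraries). Both were grown in DMEM with 10% FBS, and total RNA was sequenced with a stranded kit. The design text speaks of biological triplicates of 1 cell line. Nothing more is said of separate infections, so the spread behind each p-value may be partly technical. Replicates differed by little more than counting error (estimated biological coefficient of variation 1.65%). Very small p-values therefore do not show that a change would recur in separately made cells. The labels do not say how many hairpin sequences or clones were used.

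Homologous recombination repairs DNA breaks by copying the sister chromatid. The ends are first trimmed to single strands, BRCA1 and its partners then bring in BRCA2, and BRCA2 loads the recombinase that searches for the matching sequence. The Fanconi core complex attaches ubiquitin to FANCD2 and FANCI when replication forks meet crosslinked DNA, mismatch repair corrects copying errors, and the kinases ATM and ATR signal damage through CHEK2 and CHEK1. Loss of BRCA2, ATM or CDK12 function recurs in advanced prostate cancer, and tumours with defective recombination can be sensitive to inhibitors of PARP1.

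Totals ran from 5956486 to 9902002 counts in shNEDD9 and from 3217276 to 7492244 counts in shNTC. NEDD9 itself had 137.1, 138 and 135.9 CPM (counts scaled to library size with TMM factors) in shNEDD9, against 362.3, 339.3 and 365.4 CPM in shNTC, which is 2.62-fold lower. All 10 markers of the prostate line were expressed, and 2 rose and 7 fell: KLK3 was 3.36-fold higher in shNEDD9, while FOLH1 was 3.21-fold and KRT8 2.69-fold lower. The part of this shift in the repair gene levels was not tested. Of markers of other cells, the endothelial gene CDH5 and the immune genes CD3E and CD68 had 0 counts in all 6 libraries. The endothelial marker VWF had 13, 13 and 15 counts in shNEDD9 against 8, 9 and 7 counts in shNTC, and the immune marker CD14 had 26, 36 and 51 counts in shNEDD9 against 23, 15 and 22 counts in shNTC; neither was called. The summed level of 6 fibroblast markers was 47.5 to 54.6 CPM in shNEDD9 and 26.4 to 33.6 CPM in shNTC, most of it from LUM. Only 2 of the 6 had enough reads to be tested. LUM was 2.37-fold higher in shNEDD9, and COL1A1 was 1.46-fold lower. The part of these markers in the results was not tested.

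The repair genes were higher in shNEDD9 as a group. Of the 41 genes, 37 rose (edgeR quasi-likelihood test, Benjamini-Hochberg adjusted p under 0.05) and 0 fell; 0 fell also at an unadjusted p under 0.05 or by DESeq2 or limma-voom. Of all genes tested, 35.5% rose and 35.9% fell. At a change of at least 1.5-fold, 29 of the 41 rose, where 17.2% of all genes rose and 18.6% fell by that much, and 23 rose at least 2-fold, where 7.67% of all genes did. In 37 of the 41 genes every shNEDD9 library lay above every shNTC library. Groups without overlap, in either direction, were found in 71.8% of all genes. The median log2 fold change of the 41 was 1.13 (quartiles 0.51 and 1.47), beside 0.00 over all genes tested. Their summed level was 2908, 2892 and 2882 CPM in shNEDD9, against 1572, 1579 and 1598 CPM in shNTC. The 4 genes that were not called were NBN, RAD50, MSH6 and ATR.

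Markers of dividing cells moved the same way. All 12 S phase markers rose, with a median log2 fold change of 1.29 and a summed level of 2176 to 2220 CPM in shNEDD9 against 1069 to 1086 CPM in shNTC. All 12 G2/M markers rose too, with a median of 1.77 and sums of 2757 to 2801 CPM in shNEDD9 against 848 to 883.2 CPM in shNTC. Of the 41 repair genes, 15 lay above the S phase median and 6 above the G2/M median. The part of cell division in the repair gene levels was not tested, and in bulk RNA a larger share of dividing cells and more RNA per cell cannot be told apart.

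**Figure D1:**
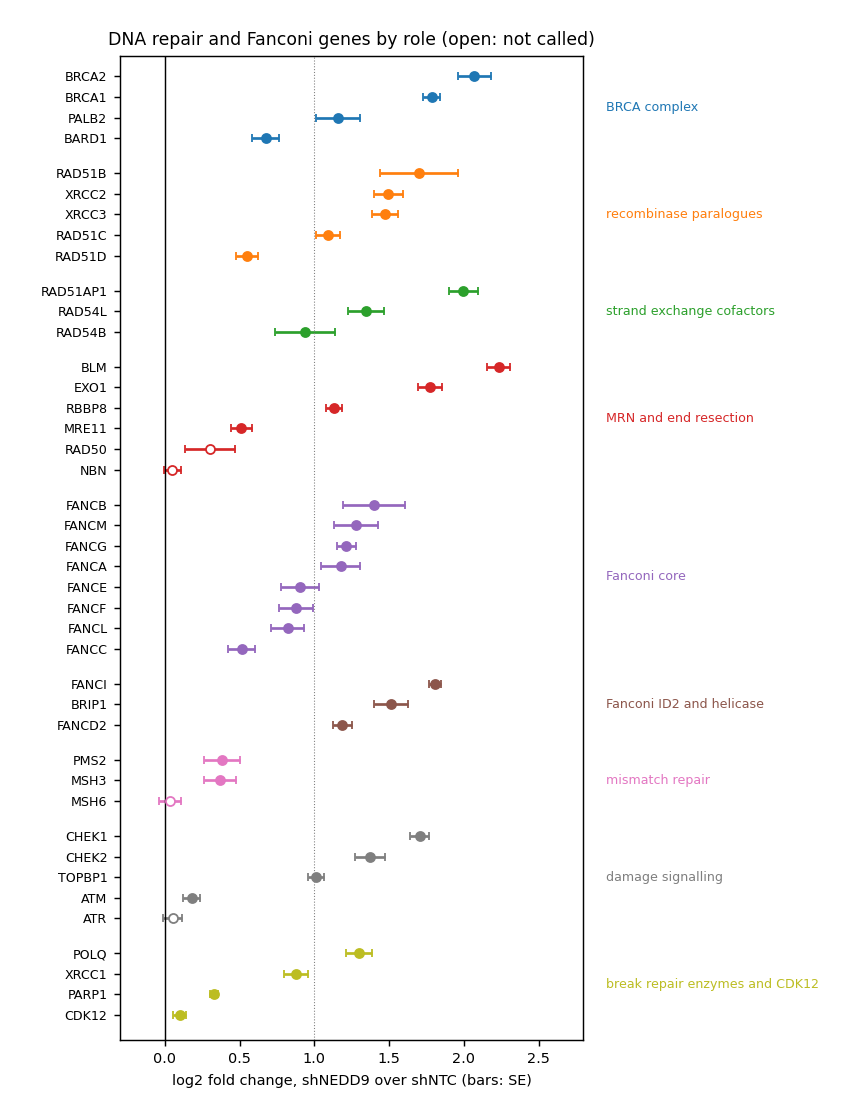
Log2 fold changes of the 41 repair genes (x axis, shNEDD9 over shNTC), grouped by role; bars are standard errors, open circles are genes that were not called and the dotted line marks 2-fold. BLM lies farthest right at 2.23, while MSH6, NBN and ATR lie within 0.06 of 0.

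The BRCA complex held some of the largest changes and a wide spread. BRCA1, a ubiquitin ligase that starts recombination at broken ends, had 159, 152 and 158 CPM in shNEDD9, against 48, 44.6 and 42.6 CPM in shNTC. BRCA2, which loads the recombinase, had 42, 39.9 and 41.8 CPM in shNEDD9, against 11.2, 7.23 and 9.55 CPM in shNTC. Neither gene's groups overlapped, and the folds were 3.45 for BRCA1 (log2 1.79, SE 0.06, edgeR adjusted p = 5.24e-225) and 4.2 for BRCA2 (log2 2.07, SE 0.11, edgeR adjusted p = 3.79e-79). PALB2, which joins BRCA1 to BRCA2, rose 2.23-fold, to 15.9 ± 0.21 CPM in shNEDD9 against 6.64 ± 1.98 CPM in shNTC (SD, n = 3 each). BARD1, the obligate partner of BRCA1 in the ligase, rose 1.6-fold, to 37.5 ± 2.41 CPM against 23.9 ± 1.09 CPM in shNTC (n = 3 each). The smallest change in the complex was thus that of BARD1. Every shNEDD9 library stood above every shNTC library for all 4 genes, but 71.8% of all genes tested had groups without overlap.

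The 5 paralogues of the recombinase, which assist its loading in small complexes, all rose. RAD51B had 6.04, 5.98 and 6.35 CPM in shNEDD9, against 1.61, 1.89 and 2.19 CPM in shNTC, a 3.25-fold rise that rests on 32 counts over the shNTC libraries. XRCC2 had 41, 42 and 45.6 CPM in shNEDD9, against 17.3, 8.80 and 16.3 CPM in shNTC. Its low value was that of shNTC replicate 2, the shallowest library, and its rise was 2.82-fold (log2 1.49, SE 0.10). XRCC3 rose 2.77-fold, RAD51C 2.13-fold and RAD51D 1.46-fold. XRCC3 shares 76.7% of its annotated exon bases with KLC1 on the opposite strand, which was lower in shNEDD9 (log2 -0.49), and the strand setting of the counting was not given in the sources used here.

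Of the cofactors of strand exchange, RAD51AP1, which stabilises the joined strands, changed most. It had 46.8, 52.8 and 51.6 CPM in shNEDD9, against 11.6, 15.1 and 12.8 CPM in shNTC (3.99-fold, log2 2.0, SE 0.10, edgeR adjusted p = 1.12e-91). RAD54L, a motor protein that moves along DNA during the search for the matching strand, rose 2.54-fold, to 25.4 ± 0.94 CPM in shNEDD9 against 10.4 ± 1.95 CPM in shNTC (n = 3 each). Of its exon bases 25.1% lie opposite LRRC41, a gene with 771% of the counts of RAD54L, which was lower in shNEDD9 (log2 -0.39). The related motor gene RAD54B rose 1.91-fold, to 8.01 ± 0.23 CPM against 4.2 ± 0.38 CPM in shNTC. Its count is uncertain, since 59.1% of its exon bases are shared with FSBP on the same strand.

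End trimming and the MRN complex, which first binds a break, ranged from the largest rise of all to genes that were not called. BLM, a helicase that unwinds DNA during trimming and dissolves joined strands, had 82.1, 92.3 and 88.8 CPM in shNEDD9, against 19, 18.2 and 18.8 CPM in shNTC. This was the largest rise among the 41 genes (4.70-fold, log2 2.23, SE 0.08, edgeR adjusted p = 5.36e-178). EXO1, the nuclease of long-range trimming, rose 3.42-fold, to 70.7 ± 2.21 CPM in shNEDD9 against 20.8 ± 0.39 CPM in shNTC (n = 3 each). RBBP8, which encodes CtIP and starts trimming together with MRN, rose 2.19-fold. The nuclease gene MRE11 rose 1.43-fold, to 58.1 ± 5.10 CPM in shNEDD9 against 41 ± 2.06 CPM in shNTC. NBN, the MRN subunit that recruits ATM, stood at 75.7, 76.8 and 71.6 CPM in shNEDD9, against 71.3, 71.6 and 72.6 CPM in shNTC. Its groups overlapped and it was not called (log2 0.05, SE 0.06, edgeR adjusted p = 0.441). RAD50, another subunit of the complex, was not called either (log2 0.30, SE 0.17, edgeR adjusted p = 0.0982). It stood at 8.84 ± 1.17 CPM in shNEDD9 and 7.61 ± 1.41 CPM in shNTC, and its count is uncertain, since 79.7% of its exon bases are also annotated to AC116366.3 on the same strand.

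**Figure D2:**
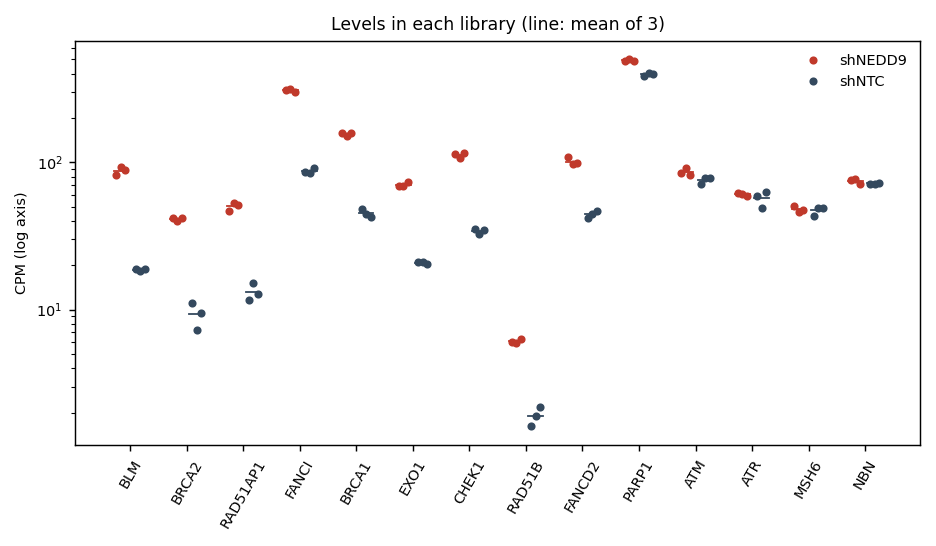
Levels of 14 repair genes in each library, in CPM on a log axis, with shNEDD9 (red) left of shNTC (dark) and a line at each mean of 3. The groups are apart for the genes from BLM to ATM, as in 71.8% of all genes tested, and overlap for ATR, MSH6 and NBN.

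All 8 genes of the Fanconi core complex and its anchor rose, 7 of them at least 1.5-fold. FANCG, a scaffold subunit, had 98.7, 100.6 and 94.5 CPM in shNEDD9, against 41.6, 44.6 and 41.3 CPM in shNTC (2.32-fold). FANCB rose 2.64-fold from few reads, to 8.90 ± 1.34 CPM in shNEDD9 against 3.18 ± 0.62 CPM in shNTC (n = 3 each, log2 1.40, SE 0.21). The translocase gene FANCM, which anchors the complex on chromatin, rose 2.43-fold and FANCA 2.26-fold. FANCE rose 1.87-fold, FANCF 1.84-fold and FANCL, which encodes the ubiquitin ligase of the complex, 1.77-fold. FANCC changed least, by 1.43-fold, at 33.9 ± 2.05 CPM in shNEDD9 against 23.8 ± 0.51 CPM in shNTC. FANCA shares 23.6% of its exon bases with ZNF276 on the opposite strand, which also rose (log2 0.87).

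Both genes of the pair that the core complex modifies rose. FANCI had 309, 313 and 302 CPM in shNEDD9, against 85.9, 84.5 and 91.9 CPM in shNTC, and FANCD2 had 107.9, 97.2 and 98.7 CPM in shNEDD9, against 41.8, 44.9 and 46.5 CPM in shNTC. The folds were 3.5 for FANCI (log2 1.81, SE 0.04) and 2.28 for FANCD2 (log2 1.19, SE 0.06). Per kilobase of annotated exon FANCI was also the more abundant, at 39.7 against 12.1 for FANCD2 in shNEDD9 and at 11.3 against 5.30 in shNTC (RPKM). BRIP1, a helicase that binds BRCA1, rose 2.86-fold, to 31.3 ± 1.44 CPM in shNEDD9 against 10.8 ± 2.0 CPM in shNTC (n = 3 each).

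Mismatch repair had the lowest median log2 fold change of the 9 roles, 0.37. MSH6, which recognises single mispaired bases, had 50.9, 45.7 and 47.7 CPM in shNEDD9, against 43.3, 49.3 and 49.3 CPM in shNTC. The groups overlapped and the gene was not called (log2 0.03, SE 0.07, edgeR adjusted p = 0.684). MSH3, which recognises small loops, rose 1.29-fold (log2 0.37, SE 0.11, edgeR adjusted p = 0.00103), and PMS2, an endonuclease subunit, 1.30-fold (log2 0.38, SE 0.12, edgeR adjusted p = 0.00287). Neither reached 1.5-fold. PMS2 was no longer called when all libraries were thinned to the smallest total (edgeR adjusted p = 0.144, range over 18 alternatives 0.00183 to 0.252), and its count is uncertain because near-identical pseudogenes exist.

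Of the 5 damage signalling genes 4 rose, 3 of them at least 2-fold. CHEK1, the effector kinase below ATR, had 114 CPM in shNEDD9 replicate 1, 107 in replicate 2 and 116 in replicate 3, against 35.2, 32.4 and 34.9 CPM in shNTC (3.26-fold, log2 1.70, SE 0.06). CHEK2, the effector below ATM, rose 2.59-fold, to 36 ± 0.71 CPM in shNEDD9 against 13.7 ± 0.71 CPM in shNTC (n = 3 each). TOPBP1, which activates ATR, rose 2.01-fold. ATM had 84.3, 91.3 and 81.7 CPM in shNEDD9, against 71.7, 78.2 and 78.6 CPM in shNTC. That is a 1.13-fold rise (edgeR adjusted p = 0.00211) which was not called without shNTC replicate 1 (edgeR adjusted p = 0.0803, range over 18 alternatives 4.22e-10 to 0.631). ATR had 62.1, 61 and 59.2 CPM in shNEDD9, against 59.3, 48.7 and 62.4 CPM in shNTC, and was not called (log2 0.05, SE 0.06, edgeR adjusted p = 0.468).

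The remaining enzymes ranged widely. POLQ, the polymerase of an error-prone end-joining route, rose 2.46-fold, to 47.1 ± 2.90 CPM in shNEDD9 against 19 ± 0.52 CPM in shNTC (n = 3 each). XRCC1, a scaffold of single-strand break repair, rose 1.84-fold. PARP1, which senses strand breaks, was the most abundant of the 41 genes per kilobase of exon in each group, and had 490.3, 502 and 489.7 CPM in shNEDD9 against 385, 402.8 and 397 CPM in shNTC (1.26-fold, edgeR adjusted p = 5.94e-30). CDK12, a kinase of transcription elongation needed for long repair genes, had 140.1 CPM in shNEDD9 replicate 1, 135 in replicate 2 and 136 in replicate 3, against 131, 120.02 and 129 CPM in shNTC. Its 1.07-fold rise (edgeR adjusted p = 0.0374) was lost in 7 of 18 alternatives, among them without shNEDD9 replicate 1 (0.0765), without shNTC replicate 2 (0.138) and without shNTC replicate 3 (0.0705), with a range of 3.33e-12 to 0.755.

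Because several products work in pairs, the ratio of counts of 12 partner pairs was compared within each library. Groups did not overlap in 10 of the 12 pairs, each with a two-sided exact permutation p of 0.1, the smallest that 3 against 3 libraries can give (0.12 adjusted over the 12 pairs), so no pair passed a threshold of 0.05. Among single genes 71.8% had groups without overlap, and the share over all gene pairs was not computed. In libraries thinned to the smallest total the count was 9, since the ratio of RAD51C to RAD51B then overlapped (exact permutation p = 0.2). CHEK1 had 1.84, 1.75 and 1.97 counts per count of ATR in shNEDD9, against 0.594, 0.665 and 0.559 in shNTC, a 3.06-fold difference. The ratio of CHEK2 to ATM was 0.42 ± 0.016 in shNEDD9 against 0.18 ± 0.016 in shNTC (n = 3 each), and that of XRCC2 to RAD51D was 0.803 ± 0.031 against 0.387 ± 0.128. FANCI stood at 3.05 ± 0.18 counts per count of FANCD2 in shNEDD9 and 1.97 ± 0.087 in shNTC. In the other direction, BARD1 stood at 0.24 ± 0.016 counts per count of BRCA1 in shNEDD9 against 0.532 ± 0.036 in shNTC, and PALB2 at 0.385 ± 0.0095 per count of BRCA2 against 0.708 ± 0.128. Both pairs with RAD50 overlapped between the groups (exact permutation p = 0.3 for MRE11 and 0.6 for NBN).

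**Figure D3:**
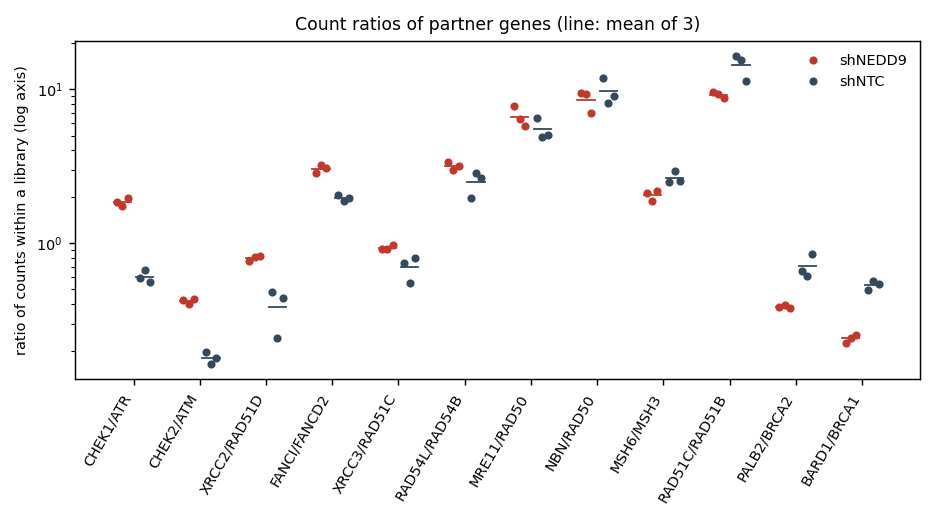
Ratio of the counts of partner genes within each library (log axis), with shNEDD9 (red) left of shNTC (dark) and a line at each mean of 3. The pairs run from CHEK1/ATR, 3.06-fold higher in shNEDD9, to BARD1/BRCA1, 0.450 times the shNTC ratio.

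Neighbouring genes on the chromosomes were set beside the 41. For each of the 41 genes the median log2 fold change of the nearest tested protein-coding genes, 5 on each side, lay between -0.61 and 0.61, with a median of -0.02 over the 41. The repair gene's own log2 fold change was below its neighbours' median for ATM (0.18 against 0.34) and MSH3 (0.37 against 0.61).

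Stretches before the start sites of 6 genes are shown because they span the range of the changes, from BLM to genes that were not called; they were picked after the values and the matches were seen. RefSeq promoter sequences (GRCh38.p14) were matched by symbol for 38 of the 41 genes, without FANCI, NBN and RAD54B. In the 250 bases before the most upstream start, both strands were searched for E2F-type letters, which were TTCCCGC, also TTCGCGC, and further TTGGCGC. They were also searched for the CHR letters TTTGAA, and separately for CCAAT; these are letters that E2F factors, the DREAM complex and NF-Y are known to bind. The E2F-type matches of MSH3 overlap each other, as do those of TOPBP1. Matches are in capitals in the last 150 bases before the start, 5′ to 3′ on the strand of the gene. BLM lies at chr15:90717196-90717345 (plus strand), RAD51AP1 at chr12:4538740-4538889 (plus), RAD54L at chr1:46247538-46247687 (plus), CHEK1 at chr11:125626074-125626223 (plus), MSH6 at chr2:47782995-47783144 (plus) and ATR at chr3:142578734-142578883 (minus).
BLM: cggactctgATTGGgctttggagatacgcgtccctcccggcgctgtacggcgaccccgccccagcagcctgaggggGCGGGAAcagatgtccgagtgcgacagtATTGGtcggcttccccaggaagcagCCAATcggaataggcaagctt
RAD51AP1: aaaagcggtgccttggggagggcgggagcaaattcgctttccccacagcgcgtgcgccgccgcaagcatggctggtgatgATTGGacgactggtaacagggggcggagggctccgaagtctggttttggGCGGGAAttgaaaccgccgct
RAD54L: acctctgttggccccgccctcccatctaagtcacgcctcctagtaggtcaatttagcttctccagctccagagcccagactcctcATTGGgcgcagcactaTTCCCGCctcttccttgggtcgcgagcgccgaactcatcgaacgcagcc
CHEK1: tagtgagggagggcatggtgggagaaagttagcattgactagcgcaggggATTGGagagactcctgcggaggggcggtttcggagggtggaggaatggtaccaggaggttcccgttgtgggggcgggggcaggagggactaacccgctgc
MSH6: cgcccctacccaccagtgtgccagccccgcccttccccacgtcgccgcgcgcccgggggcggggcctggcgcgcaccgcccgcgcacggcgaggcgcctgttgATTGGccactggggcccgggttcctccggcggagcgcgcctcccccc
ATR: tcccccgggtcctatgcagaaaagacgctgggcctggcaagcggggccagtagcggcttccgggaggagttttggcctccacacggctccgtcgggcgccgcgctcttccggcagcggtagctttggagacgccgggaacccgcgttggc

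BLM had 1 E2F-type match, 74 to 68 bases before the start, and 3 CCAAT matches. RAD51AP1 and RAD54L each had 1 E2F-type match and 1 CCAAT match, CHEK1 and MSH6 1 CCAAT match each, and ATR none of the 3 in the 250 bases. Among genes not shown, BRCA2, BRCA1, EXO1 and FANCD2 rose 4.2-, 3.45-, 3.42- and 2.28-fold and also had none of the 3. The BRCA1 stretch lay before a start beyond the upstream end of the annotated gene (chr17:43170245, minus strand). Other starts of BRCA1 were not searched. E2F-type letters were found before 10 of 38 repair genes (26.3%), beside 15.2% of 10290 tested genes and 9.41% of all 27305 genes with a RefSeq promoter sequence. In 29 of the 38 windows the bases after the start read as annotated transcript of the gene. Which start these cells use was not determined, so a gene without a match may have one at another start. CCAAT was found before 16 of 38 (42.1%), beside 35.1% of tested genes, and CHR before 5 (13.2%), beside 8.02%. E2F-type letters stood before 5 of the 22 genes that rose at least 2-fold (22.7%), against 5 of the other 16 (31.2%), and no test was made. A match is a string of letters, not a shown binding site.

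Other repair genes were listed beside the 41; whether the lists differ was not tested. Of 141 tested genes in 9 such lists, 92 rose and 14 fell (65.2% and 9.93%), with a median log2 fold change of 0.45. Over all genes tested the shares were 35.5% and 35.9%. Of 14 other Fanconi genes 9 rose and 2 fell; FAAP24, a DNA-binding partner of FANCM, rose 3.64-fold, to 17 ± 0.53 CPM in shNEDD9 against 4.84 ± 0.75 CPM in shNTC (n = 3 each), UBE2T, the ubiquitin-conjugating enzyme of the pathway, 3.28-fold and DCLRE1B 2.52-fold. Of 30 other recombination genes 21 rose and 2 fell, with RMI2, a partner of BLM, 3.37-fold, the nuclease subunit gene EME1 3.14-fold and MMS22L 3.07-fold higher. All 12 genes of the list of other mismatch repair genes rose (median 1.09). Most of them also serve DNA replication, among them the clamp loader genes RFC3 (2.51-fold) and RFC5 (2.33-fold) and RPA3 (2.45-fold). PMS1 and MLH3, which belong to mismatch repair itself, rose 1.71- and 1.21-fold, and the groups of MLH3 overlapped. Of 14 checkpoint genes 9 rose and 2 fell: H2AFX, the histone variant phosphorylated at breaks, rose 2.30-fold and TIMELESS 2.03-fold, and NEK1 was 2.39-fold lower.

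Counts in the other lists were as follows, beside 35.5% of all genes tested that rose and 35.9% that fell. Of 16 end-joining genes 11 rose and 1 fell; MDC1, a mediator at broken ends, rose 2.77-fold, XRCC4 1.63-fold and DCLRE1C 1.63-fold, and 1 of the 16 reached 2-fold. Of 24 base excision and single-strand break genes 16 rose and 3 fell, with the glycosylase gene NEIL3 4.10-fold, PARP2 2.23-fold and MUTYH 2.18-fold higher. Of 20 nucleotide excision genes 9 rose and 4 fell (45% and 20%, median 0.07). DDB2 was 3.03-fold, ERCC8 2.15-fold and CDK7 1.6-fold higher, while UVSSA was 1.52-fold and XPC 1.45-fold lower. Of 9 translesion genes 4 rose and 0 fell (44.4% and 0%), with PRIMPOL 1.69-fold higher, HLTF 1.49-fold and POLH 1.45-fold. CCNK, the cyclin of CDK12, rose 1.33-fold, and CDK13 stood at 92.8 ± 4.70 CPM in shNEDD9 against 96.4 ± 5.44 CPM in shNTC (n = 3 each) and was not called.

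**Figure D4:**
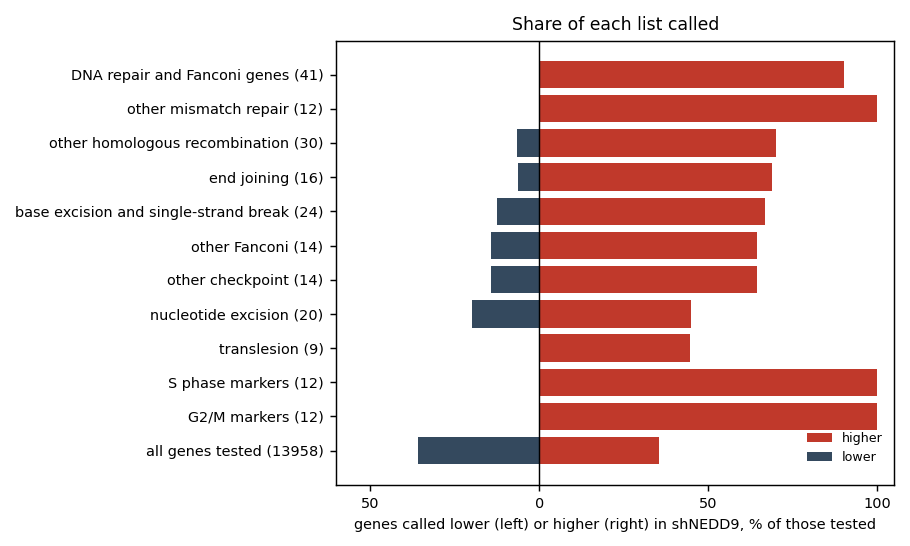
Share of the tested genes of each list that were called higher (right, red) or lower (left, dark) in shNEDD9, with the number tested in brackets. Of the 41 repair genes 90.2% were called higher and 0% lower, beside 35.5% and 35.9% of all genes tested.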

How the data were processed

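The authors deposited raw whole-number read counts per gene. Tools listed in the submitters' processing notes are STAR 2.5.3a, Subread 1.6.2 with featureCounts, cutadapt 1.9 and FastQC 0.11.5, with the builds hg19 and GRCh38; the annotation and strand setting are not given in the sources used here. All 58735 identifiers are in GENCODE release 29 (GRCh38), which gave exons and neighbours; 1 blank row was left out.

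Groups came from the titles. Counts of all genes were tested with edgeR 4.0.16 (R 4.3.3; filterByExpr, minimum count 10; TMM; glmQLFit robust, glmQLFTest), adjusted over 13958 genes. Standard errors are approximate (unmoderated log2 fold change over the root of F). Between replicates, chi-square per degree of freedom was 1.14 to 1.21, above 1 in every pair. A floor of 3 counts is 0.303 to 0.943 CPM; it covers counting error only. In simulated data for 13745 genes of this comparison, 56% of genes changed 1.25-fold, 88% of those changed 1.5-fold and 92% of those changed 2-fold were recovered, and 8 of 176 calls were false. The simulated spread was the common one estimated from these libraries (1.65%), and only a small share of the genes was changed. These rates therefore do not hold for a larger biological spread. Ratios of counts within a library were compared on the log2 scale with a pseudocount of 0.5; the printed ratios of single libraries have none. Alternatives included DESeq2 1.42.0 and limma 3.58.1 (voom). Named genes are the 41, and per other list up to 3 called genes of largest change with non-overlapping groups and a mean of at least 1 CPM. Any further gene of these lists was named after its values were seen. The 41 genes and all lists were chosen with earlier results of these data known.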

Additional observations from a re-analysis of the deposited data

How the results depend on the processing

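Over 18 alternatives, 29 to 40 of the 41 genes were higher and 0 lower. Over the same alternatives 15.1% to 38.1% of all genes tested were higher and 16.6% to 35.9% lower. The count of the 41 at least 1.5-fold higher was 29 to 31. The share of all genes at 1.5-fold was computed in the main setting only (17.2% higher, 18.6% lower). The median log2 fold change of the 41 was 1.10 to 1.18. With a replicate block 37 of the 41 were higher, beside 35.0% of all genes tested. Deviations of same-numbered libraries correlated at -0.024, -0.002 and 0.036 over 11446 genes. Replicates differed by little more than counting error, so these correlations cannot decide whether the numbers pair samples. An assumed biological coefficient of variation of 0.2, in place of the estimated 1.65%, left 29 of the 41, beside 15.1% of all genes. Removing the trend on gene length and GC content gave 40, adding RAD50, MSH6 and ATR. In that setting 38.1% of all genes were higher and their median log2 fold change was 0.043. The call of 29 genes held in all 18. Directions reversed for 3 genes that were not called: NBN (-0.0195 with the trend removed), MSH6 (-0.0429 without shNTC replicate 1) and ATR (-0.0062 without shNTC replicate 2). With 1 library left out in turn, MSH6 ranged from -0.0429 to 0.0794 and ATR from -0.0062 to 0.1115. Leaving out 1 library gave 36 or 37 higher genes of the 41, beside 32.7% to 34.4% of all genes.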

Other observations

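Among the other repair genes, those with the largest decreases were NEK1, a kinase linked to cilia and to checkpoint control, and POLB, the gap-filling polymerase of base excision repair. NEK1 had 33.4 ± 1.89 CPM in shNEDD9 against 79.9 ± 2.5 CPM in shNTC (SD, n = 3 each, log2 -1.25, SE 0.07), and POLB was lower by -1.04 on the log2 scale. The end-joining gene NHEJ1, too low to be tested, had 0 counts in each shNEDD9 library and 6, 4 and 6 counts in shNTC. NHEJ1 and POLB were singled out after their values were seen.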
